A study of Mus musculus with 6 samples.

Results

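The neurotrophins brain-derived neurotrophic factor (Bdnf) and neurotrophin-3 (Ntf3), the neurotrophin-3 receptor TrkC (Ntrk3), the low-affinity receptor p75NTR (Ngfr) and the sortilin family of sorting receptors (Sort1, Sorcs1, Sorcs2 and Sorcs3) were followed in hippocampal RNA-seq. Members were all isoforms whose name is one of these 8 gene symbols followed by a number. There were 52 such isoforms among the 133944 isoforms measured, from 8 of 53354 gene symbols. The study asked how the hippocampal transcriptome differs when the RNA-binding protein Rbfox1 is up-regulated. One group was N-cre, mice that carry a Cre recombinase driven by Nes-cre (n = 3). The other was N-cre;Fox1, mice that carry the same Cre and in addition 1 R26-Rbfox1 +/flox allele, an Rbfox1 cDNA placed at Gt(ROSA)26Sor behind a CAG promoter and a STOP cassette that Cre removes (n = 3). All 6 mice were on a C57BL/6 background and 3 months of age. The controls therefore carry Cre too, and the groups differ in the knock-in allele. Nes-cre drives Cre from the nestin promoter, which the study describes as active in hippocampal neurons, and each library is a whole hippocampus.

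Neurotrophins are made as proneurotrophins that are cleaved to the mature ligand. Mature BDNF signals through TrkB and mature neurotrophin-3 mainly through TrkC, while proneurotrophins bind p75NTR together with sortilin or a relative of it and can promote apoptosis or synaptic weakening. The Bdnf gene has many promoters, each with its own 5′ exon spliced to 1 shared exon that holds the mature protein, and the promoter of exon IV is known for its response to neuronal activity and calcium. Full-length TrkC has an intracellular tyrosine kinase domain, which truncated TrkC lacks.

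Libraries held 40463587 to 62141336 expected counts, so that 3 counts, taken as the floor of detection, corresponded to 0.0483 to 0.0741 CPM, that is counts scaled to a common library size. Normalised values are CPM after TMM scaling unless said otherwise. Floors and the Wilson interval cover counting error only, while intervals of fold changes come from the edgeR fit and include the spread between mice. Rbfox1 itself, the gene of the transgene, measured 288, 273 and 277 CPM in the N-cre and 300, 256 and 288 CPM in the N-cre;Fox1 mice, which overlap (log2 fold change 0.01, SE 0.0566). Its isoform Rbfox1-202 was at 33.1, 33.6 and 35.5 CPM in N-cre and at 45.9, 40.9 and 44.4 CPM in N-cre;Fox1 mice without overlap, at an adjusted p of 0.623. Groups were taken from the labels, and in the gene sum of Rbfox1 the labelled genotypes overlapped. Replicate 3 of N-cre and replicate 2 of N-cre;Fox1 stood apart by choroid plexus markers (5 of 5 genes measured), whose summed level was 2240 and 5036 CPM in these libraries and 26.5 to 36.0 CPM in the other 4. Replicate 1 of each genotype stood apart by Xist. Dentate granule cell markers summed to 354 to 386 CPM in N-cre and 337 to 414 CPM in N-cre;Fox1 mice, and CA1 markers to 668 to 734 CPM and 601 to 668 CPM. All 5 CA1 markers were lower in N-cre;Fox1 mice, with a median log2 fold change of -0.09 beside 0.00 for all genes. In edgeR 0 of the 5 had an unadjusted p under 0.05, beside 6.19% of all genes. Of the dentate markers 4 were higher and 2 lower. Cholinergic neuron markers, which would accompany p75NTR-rich basal forebrain tissue, summed to 0.762 to 1.34 CPM over all 6 mice.

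The sequences around the first exons of Bdnf and the alternative exons of the receptors show what the isoforms described here share and where they differ. The 250 bases before the start site of the Bdnf exon IV transcript (RefSeq, GRCm38.p6, chr2:109692186-109692435, plus strand) and of the exon I transcript (chr2:109674450-109674699, plus strand) are given with TGACG or its reverse complement CGTCA, the core of a cAMP response element, in capitals.
Bdnf exon IV promoter: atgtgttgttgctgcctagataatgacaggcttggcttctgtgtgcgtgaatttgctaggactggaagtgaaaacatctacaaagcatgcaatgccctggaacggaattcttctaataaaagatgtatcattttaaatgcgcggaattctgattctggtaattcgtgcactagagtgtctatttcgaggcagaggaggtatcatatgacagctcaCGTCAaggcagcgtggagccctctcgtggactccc
Bdnf exon I promoter: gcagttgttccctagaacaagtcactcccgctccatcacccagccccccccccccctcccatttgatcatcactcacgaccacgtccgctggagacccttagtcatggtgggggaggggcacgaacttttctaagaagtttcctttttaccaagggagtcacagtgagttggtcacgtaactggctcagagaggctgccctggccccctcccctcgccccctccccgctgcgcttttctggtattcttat
The core was found once in the exon IV window, beginning 35 bases before the start site, and not in that of exon I. Both strands were searched. Variants of the element without this exact core were not counted, so its absence does not show that the exon I window has none. Among 32851 promoter windows of the same length in the table (250 bases before to 50 after a start), 20.8% held the core. Windows were listed for 5 of the 8 genes, 12 in all and 7 for Bdnf, of which 1 held it. None of the Bdnf windows was for the start of exon II or exon VI, so those promoters were not searched. A match is a description of these letters and not a measured binding site.

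Rbfox proteins bind GCATG, often as TGCATG, in RNA. Bdnf-209, the exon IV isoform, holds a GCATG in its own first exon and shares with every other tested Bdnf isoform the TGCATG in the coding part of the last exon. Both are shown with 10 bases on either side and the motif in capitals (GENCODE transcripts, GRCm38, chr2:109692497-109692521 and chr2:109723435-109723460, plus strand).
Bdnf exon IV: cggcgagctaGCATGaaatctccca
Bdnf shared exon: atacttcggtTGCATGaaggcggcgc
Over the spliced transcript, Bdnf-209 held 7 GCATG, of which 4 were part of TGCATG, in 3965 nt. The other 4 tested Bdnf isoforms held 6 and 4. Of 5241 tested isoforms of 3500 to 4500 nt, 10.9% held at least 7 GCATG, 66.2% held at least 1 TGCATG and 4.66% held 4 or more TGCATG. The kinase isoform of Ntrk3, Ntrk3-201, held 5 TGCATG in 19703 nt and its truncated isoform, Ntrk3-202, held 1 in 3977 nt. Sort1-201 held 3 and Sorcs3-201 held 4. Ngfr-201, Sorcs2-201, Sorcs1-205, Sorcs1-204 and Ntrk3-205 held no TGCATG in the spliced transcript. They held 4, 1, 3, 3 and 7 GCATG.

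The receptors differ by whole exons. Sort1-203 contains a coding exon of 99 nt, known as exon 17b, that Sort1-201 skips (chr3:108355472-108355570, plus strand) and that adds 33 codons to a protein of 825 residues.
Sort1 exon 17b: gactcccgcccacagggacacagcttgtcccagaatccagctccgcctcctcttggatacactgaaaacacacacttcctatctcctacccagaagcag
Truncated Ntrk3-202 departs from Ntrk3-201 after its exon 12 of 14 and ends in coding sequence of its own, 135 nt of one exon (chr7:78304292-78304426, minus strand) and 116 nt of the next (chr7:78302632-78302747, minus strand). Its protein has 612 residues against 825 of Ntrk3-201.
Ntrk3-202 exon 13: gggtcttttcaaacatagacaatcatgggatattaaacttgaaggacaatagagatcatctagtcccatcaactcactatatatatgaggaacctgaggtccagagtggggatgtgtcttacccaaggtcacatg
Ntrk3-202 exon 14, coding part: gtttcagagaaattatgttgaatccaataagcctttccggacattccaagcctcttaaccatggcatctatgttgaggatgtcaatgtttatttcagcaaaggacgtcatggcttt
Ntrk3-206 and Ntrk3-205 carry short coding exons that Ntrk3-201 skips. The exon of 42 nt that both contain (chr7:78204103-78204144, minus strand) adds 14 codons.
Ntrk3 kinase insert: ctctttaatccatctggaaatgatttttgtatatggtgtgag
Both isoforms were rare, as the values of TrkC show.

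Levels can be compared between genes only per length. On the TPM scale (counts divided by annotated length, scaled to the same total in each library and summed over isoforms), sortilin led with 276 ± 10.1 TPM (SD over n = 6 mice), followed by Ntrk3 at 75 ± 1.83 TPM, Sorcs2 at 34.0 ± 1.57 TPM, Bdnf at 21.7 ± 3.19 TPM, Sorcs3 at 20.5 ± 0.896 TPM, Ntf3 at 9.16 ± 0.846 TPM, Sorcs1 at 5.44 ± 0.370 TPM and Ngfr at 1.74 ± 0.385 TPM. All 6 mice of a gene lay above all mice of the next gene in this order, except that Bdnf, at 16.8 to 25 TPM, overlapped Sorcs3, at 19.8 to 22.2 TPM, and was the higher in 4 of 6 mice. In a whole tissue, fewer cells of a type and less RNA per cell cannot be told apart.

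**Figure D1:**
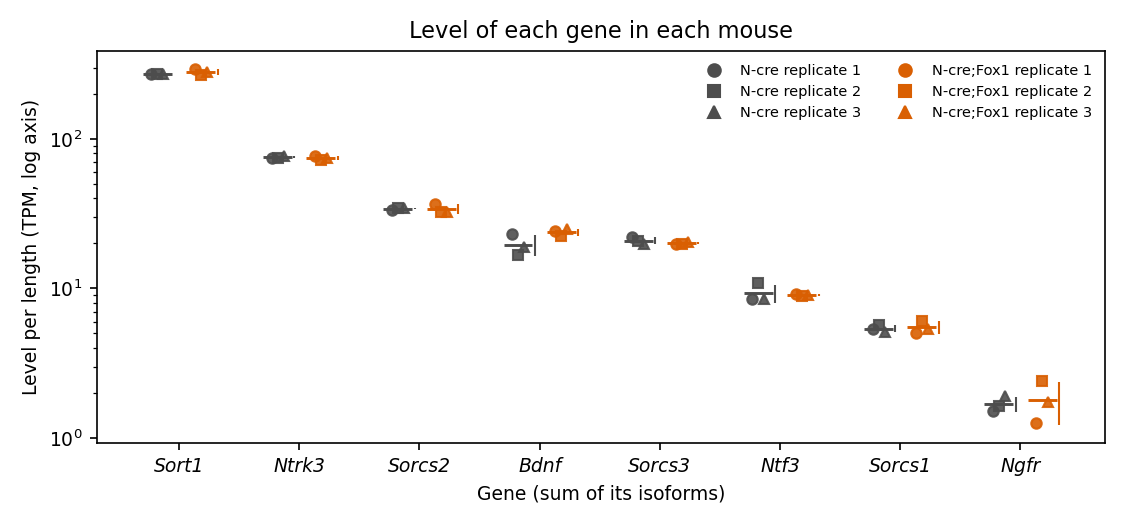
Level per length of each gene (TPM, log axis) in each mouse, with the mean (horizontal line) and SD (vertical line) of each genotype. Sort1 lies highest and Ngfr lowest in every mouse, and the genotypes overlap for all 8 genes.

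Between genotypes, none of the 8 gene sums passed an adjusted p of 0.05 (quasi-likelihood test of edgeR), beside 0.0264% of the 18924 genes tested. At an unadjusted p under 0.05 there were 0 of 8 by edgeR, 1 of 8 (Bdnf) by limma-voom and 1 of 8 (Bdnf) by the Wald test of DESeq2, against 6.19% of all genes in edgeR. For none of the 8 were the genotypes without overlap, against 12.2% of all genes. The log2 fold changes (N-cre;Fox1 over N-cre) were positive for 4 genes and negative for 4, with a median of 0.00 beside 0.00 for all genes tested. Of the 52 isoforms, 20 had enough counts to be tested, 22 had some counts but too few and 10 had none in any mouse. The highest expected count of an untested isoform in any mouse was 30.3. At an adjusted p of 0.05, 0 of the 20 tested isoforms passed, against 0.0% of 50556 isoforms. At an unadjusted p under 0.05 there was 1 of 20, in edgeR and also in DESeq2 and limma-voom, against 4.78% of all isoforms in edgeR. The same isoform, Bdnf-209, was the 1 of 20 whose genotypes did not overlap, 5.0% against 11.5% of all isoforms. Both counts over the members were thus near or below the background.

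**Figure D2:**
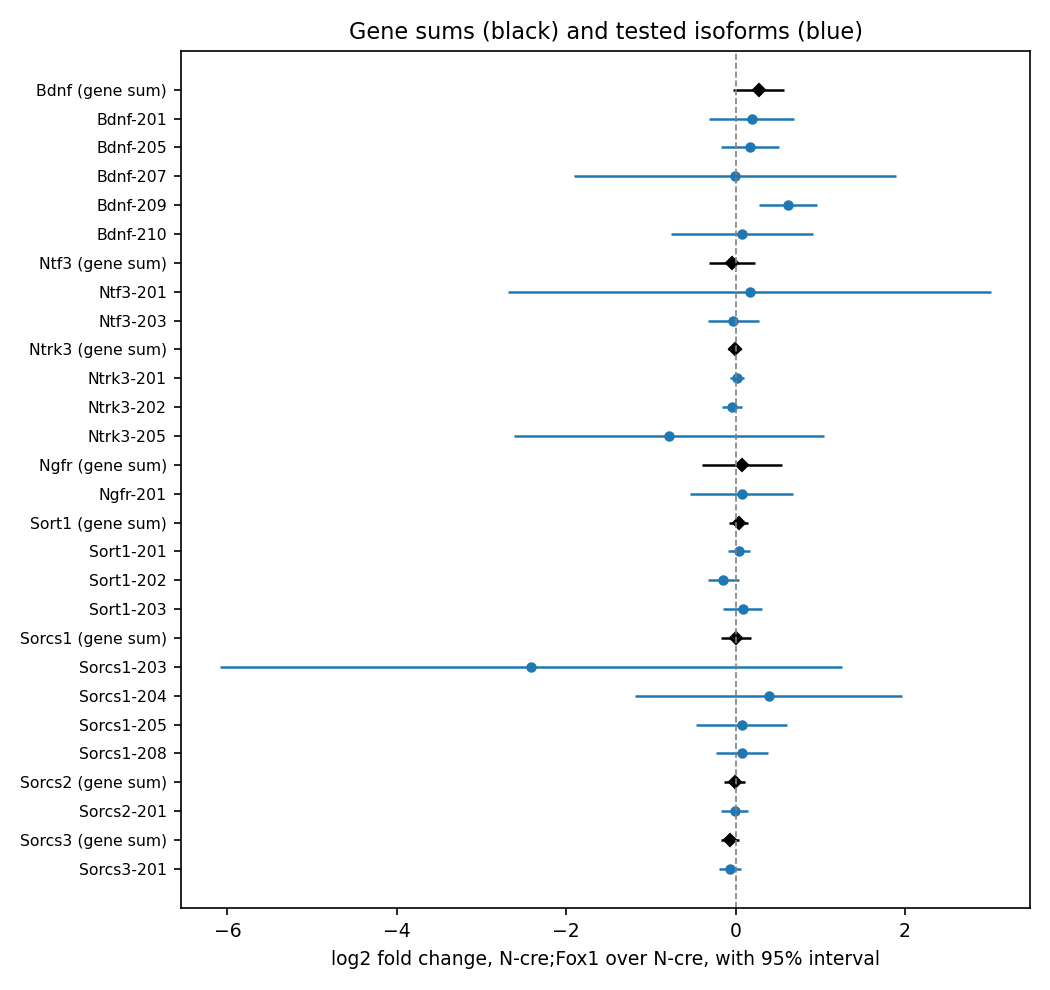
Log2 fold change of N-cre;Fox1 over N-cre with its 95% interval for the 8 gene sums (black diamonds) and the 20 tested isoforms (blue circles). The interval of Bdnf-209 is the only one that leaves out 0, and those of Sort1 and Ntrk3 are narrow around 0.

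Bdnf, the ligand of TrkB and p75NTR, was measured through 11 isoforms on chromosome 2 (GRCm38, 109674700 to 109727007, plus strand), of which 5 were tested. As a gene sum it was at 37.4, 27.1 and 30.3 CPM in N-cre and at 39.1, 35.4 and 40.1 CPM in N-cre;Fox1 mice. Replicate 1 of N-cre lay within the range of the N-cre;Fox1 mice, and the other two N-cre mice lay below it. The means were 31.6 ± 5.28 and 38.2 ± 2.47 CPM (SD, n = 3 each), and the log2 fold change was 0.27 (SE 0.124, 95% interval -0.03 to 0.58). Without replicate 1 of N-cre the log2 fold change was 0.42 and the adjusted p 0.201 (0.120 to 1.00 over all alternatives), and without replicate 2 of N-cre it was 0.18. In edgeR the unadjusted p over all 6 mice was 0.0724 and the adjusted p 0.813. All Bdnf isoforms end in the shared last exon, so the division of its reads between isoforms rests on the first exons, which the map of the isoforms shows.

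**Figure D3:**
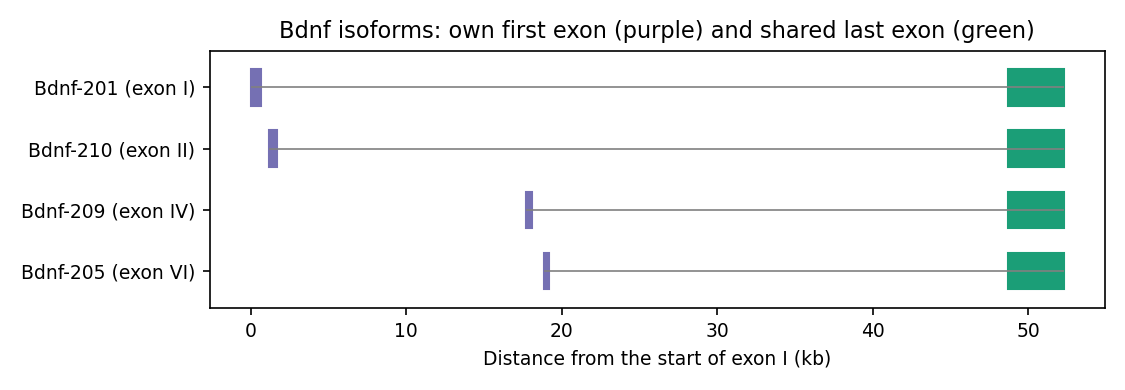
Exons of 4 Bdnf isoforms against the distance from the start of exon I (kb). Each isoform has its own first exon (purple) and the same last exon (green), so that 339 of 3965 nt are particular to Bdnf-209 and 347 of 3973 nt to Bdnf-205.

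The exon VI isoform Bdnf-205 was the most abundant, with 51.6% of the Bdnf counts on average. It was at 18.8, 14.5 and 17.4 CPM in N-cre and 19.2, 16.2 and 21.8 CPM in N-cre;Fox1 mice. The genotypes overlapped (log2 fold change 0.17, SE 0.142, adjusted p = 0.990).

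The exon IV isoform Bdnf-209, whose promoter is shown above, held 24.8% of the counts. It was at 8.36, 6.33 and 6.07 CPM in N-cre and at 10.4, 10.3 and 11.2 CPM in N-cre;Fox1 mice. Every N-cre;Fox1 mouse was above every N-cre mouse. The means were 6.92 ± 1.25 and 10.6 ± 0.494 CPM (SD, n = 3 each), a log2 fold change of 0.62 (SE 0.142, 95% interval 0.27 to 0.96). The unadjusted p was 0.00429 and the adjusted p over all isoforms 0.833, so that the difference did not pass the threshold. Over the alternatives the adjusted p ranged from 0.0619, in the Wald test of DESeq2, to 1.00, and the log2 fold change from 0.53 to 0.79. Without the libraries rich in choroid plexus markers the log2 fold change was 0.56, and without replicate 1 of both genotypes, the mice with high Xist, it was 0.79. In expected counts the isoform had 515, 283 and 246 in N-cre and 562, 596 and 662 in N-cre;Fox1 mice.

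**Figure D4:**
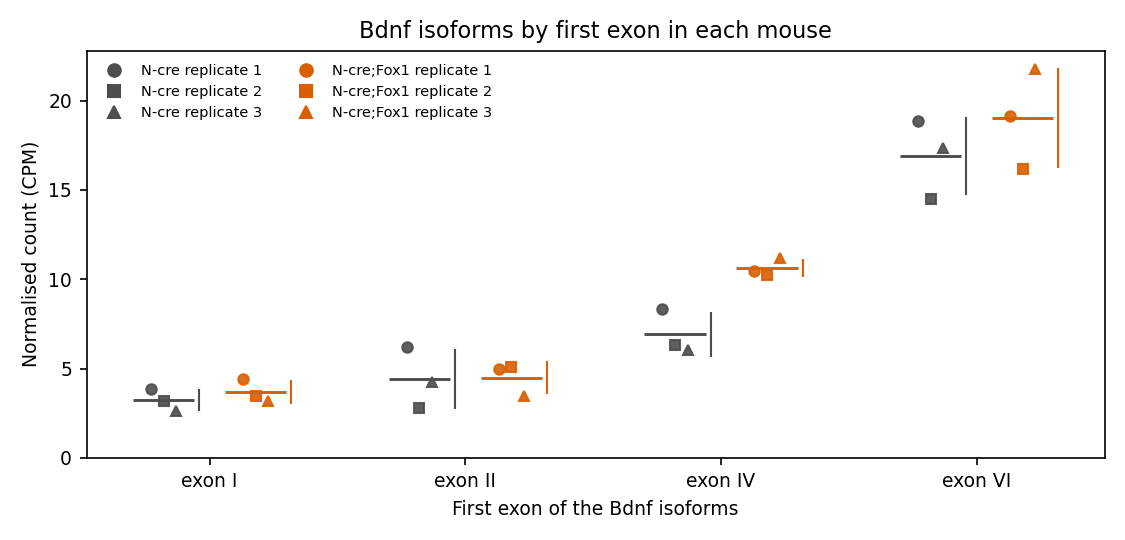
Normalised counts (CPM) of the Bdnf isoforms by first exon in each mouse, with the mean (horizontal line) and SD (vertical line) of each genotype. The N-cre;Fox1 mice lie above all N-cre mice for exon IV, and the genotypes overlap for exons I, II and VI.

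Of the remaining Bdnf isoforms, the exon I isoform Bdnf-201 held 9.92% of the counts, at 3.86, 3.18 and 2.62 CPM in N-cre and 4.43, 3.45 and 3.16 CPM in N-cre;Fox1 mice, which overlap (log2 fold change 0.19, SE 0.207). The exon II isoform Bdnf-210 held 8.55%, at 4.28, 1.66 and 2.84 CPM and 2.59, 3.44 and 3.26 CPM, with overlap (log2 fold change 0.08, SE 0.345). Bdnf-207, a shorter form of the same first exon that has no bases of its own, was at 0.973 to 1.76 CPM and 0.178 to 2.05 CPM. The exon III isoform Bdnf-206 was at 0 expected counts in all 3 N-cre mice and at 8.83, 30.3 and 11.5 in the N-cre;Fox1 mice. It was under the filter for testing, so that no fold change is given. Exon V (Bdnf-211) had no counts in any mouse, and the isoforms of exons VII and VIII (Bdnf-203, Bdnf-204 and Bdnf-202) had at most 17 expected counts. Bdnf-208, another form of exon II, had at most 17.2.

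Shares of a gene's counts do not depend on library size. Shares were compared for 13 isoform groups of 5 genes by exact permutation over the 6 mice (two-sided), where 3 mice against 3 cannot go below p = 0.1, so that no share could pass 0.05. The share of exon IV in Bdnf was 22.3, 23.3 and 20.0% in N-cre and 26.7, 28.9 and 27.9% in N-cre;Fox1 mice. It did not overlap, with a mean difference of 5.97 percentage points, at the smallest p of 0.1 (0.867 adjusted over the 13 groups). Among 37727 tested isoforms that held on average at least 1% of the counts of a gene with several isoforms, 11.0% had shares that did not overlap between the genotypes. In the mouse with the fewest Bdnf counts, replicate 2 of N-cre with 1214 counts, the counting interval of this share was 21 to 25.8% (Wilson, 95%). The share of exon VI was 50.2, 53.4 and 57.3% against 48.9, 45.6 and 54.3% and overlapped (p = 0.3, exact). The ratio of exon IV to exon VI counts was 0.443, 0.436 and 0.349 in N-cre and 0.546, 0.634 and 0.514 in N-cre;Fox1 mice, without overlap. This ratio uses the same exon IV counts as the share, so it is not a separate result. Its background over other genes was not counted. Per length the mean share of exon IV over the 6 mice was 25.1%.

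**Figure D5:**
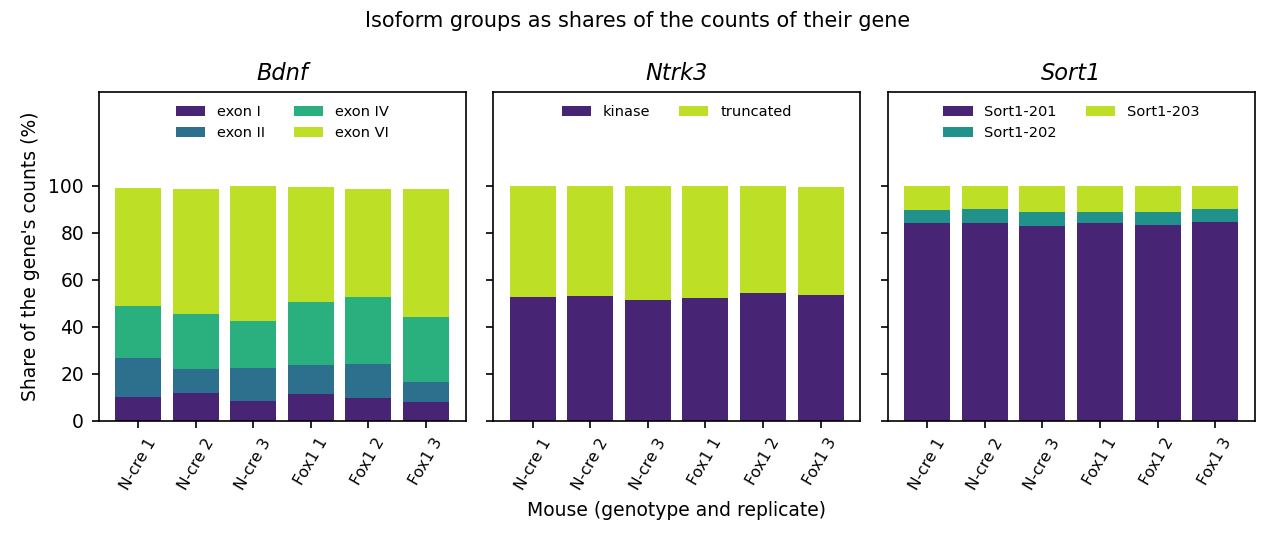
Isoform groups as a share (%) of the counts of Bdnf (by first exon), Ntrk3 (kinase and truncated) and Sort1 in each mouse, for groups of at least 1% on average. Exon IV takes 20.0 to 23.3% of Bdnf in the N-cre and 26.7 to 28.9% in the N-cre;Fox1 mice, while the Ntrk3 and Sort1 shares overlap between genotypes.

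Genes that respond to neuronal activity were a list of their own, since exon IV transcripts of Bdnf are known to do so. Of 12 such genes, all tested, 11 had a positive log2 fold change, 2 passed the threshold before adjustment (Fosb and Egr4, beside 6.19% of all genes) and 0 after it in edgeR, with a median of 0.41 beside 0.00 for all genes. The summed level was 589, 548 and 620 CPM in N-cre and 571, 867 and 948 CPM in N-cre;Fox1 mice. Replicate 1 of N-cre;Fox1 lay within the N-cre range for this sum. Its Bdnf-209 level was above that of each N-cre mouse. Fosb and Egr4, transcription factors induced by activity, had log2 fold changes of 0.65 (SE 0.184) and 0.58 (SE 0.144) at adjusted p of 0.761 and 0.693. For these 2 of the 12 genes every N-cre;Fox1 mouse, replicate 1 included, was above every N-cre mouse. Over all genes, the genotypes did not overlap for 12.2%, in either direction. The part of this list in the Bdnf values was not tested.

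Ntf3, the ligand of TrkC, was low, at 4.63, 5.87 and 4.59 CPM in N-cre and 5.04, 4.72 and 4.87 CPM in N-cre;Fox1 mice. The genotypes overlapped, with a log2 fold change of -0.04 (SE 0.123, 95% interval -0.32 to 0.23, adjusted p = 0.986). The interval corresponds to a change between -19.7 and 17.2%. Ntf3-203, which starts at its own first exon (chromosome 6, 126164730 to 126164960, minus strand), held 92.4% of the counts. It was at 4.54, 5.01 and 4.27 CPM and 4.17, 4.53 and 4.87 CPM. The isoforms of the upstream first exon, Ntf3-201 and Ntf3-202, together held 2.29, 15.0 and 7.04% in N-cre and 17.3, 4.22 and 0% in N-cre;Fox1 mice. These shares rest on at most 46.8 expected counts and overlapped (p = 0.8, exact).

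TrkC was one of the most precisely measured genes of the group. Ntrk3 was at 205, 207 and 206 CPM in N-cre and 211, 197 and 207 CPM in N-cre;Fox1 mice. All 3 N-cre mice lay inside the range of the N-cre;Fox1 mice. The log2 difference of the genotypes was -0.01 (SE 0.0353, adjusted p = 0.986), and its 95% interval corresponds to a change between -5.97 and 4.81%.

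Of 20 Ntrk3 isoforms (chromosome 7, minus strand), the full-length kinase isoform Ntrk3-201 and the truncated isoform Ntrk3-202 held 52.9 and 46.8% of the counts. Ntrk3-201 was at 109, 110 and 106 CPM in N-cre and 110, 107 and 111 CPM in N-cre;Fox1 mice. It differed by a log2 fold change of 0.02 (SE 0.0331, 95% interval -0.06 to 0.10). Ntrk3-202 was at 96.6, 97.0 and 100 CPM and 100, 89.4 and 95.3 CPM, with a log2 fold change of -0.05 (SE 0.0489, 95% interval -0.16 to 0.07). Both overlapped between the genotypes.

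The truncated share of Ntrk3 counts was 46.9, 46.7 and 48.6% in N-cre and 47.5, 45.3 and 46.1% in N-cre;Fox1 mice, a mean difference of -1.12 percentage points (p = 0.3, exact). The kinase isoform is annotated with 19703 nt and the truncated one with 3977 nt, so the picture per length is another. On the TPM scale the truncated isoform was 60.5 ± 2.12 TPM and Ntrk3-201 13.8 ± 0.221 TPM (SD, n = 6), and the ratio of truncated to kinase was 4.32, 4.27 and 4.63 in N-cre and 4.46, 4.04 and 4.20 in N-cre;Fox1 mice. This ratio rests on the annotated length of the kinase transcript. Ntrk3-205, which carries a kinase insert, had 0.0792% of the counts, at 2.37 to 13.5 expected counts (log2 fold change -0.79, SE 0.757). Ntrk3-206 had at most 11.2 counts, and of the other 16 isoforms 7 had none and none passed the filter. A gene on the opposite strand, Gm9885, overlaps Ntrk3 and had up to 256 counts. The library kit was a stranded one, and whether the counting used strand is not given in the sources used here.

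Ngfr, which encodes p75NTR, was the lowest of the 8 genes, on chromosome 11 from 95568818 to 95587735 with 1 isoform. It was at 2.12, 2.28 and 2.61 CPM in N-cre and 1.75, 3.24 and 2.39 CPM in N-cre;Fox1 mice, from 94 to 189 expected counts. The lowest and the highest value were both in N-cre;Fox1 mice, and the highest, in replicate 2, was the library with the most choroid plexus markers. The log2 fold change was 0.08 (SE 0.213, 95% interval -0.40 to 0.55, adjusted p = 0.985). Without both libraries rich in choroid plexus markers it was -0.08. The interval includes a change of 46.7% upward and of 24.0% downward.

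Sortilin (Sort1), the co-receptor of p75NTR for proneurotrophins that also sorts BDNF to secretion, was the highest of the 8 genes (chromosome 3, 108284082 to 108361511 over its isoforms). It was at 736, 725 and 726 CPM in N-cre and 799, 700 and 744 CPM in N-cre;Fox1 mice, with overlap. The log2 fold change was 0.04 (SE 0.0498, 95% interval -0.07 to 0.15, adjusted p = 0.964). Sort1-201, without exon 17b, held 83.9% of the counts, at 621, 611 and 603 CPM and 674, 585 and 629 CPM. Sort1-203, with exon 17b, held 10.5%, at 73.9, 70.7 and 81.4 CPM in N-cre and 89.9, 78.5 and 71.4 CPM in N-cre;Fox1 mice. It differed by a log2 fold change of 0.09 (SE 0.0957, 95% interval -0.15 to 0.32).

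Among the counts of the 2 coding Sort1 isoforms, the form with exon 17b made up 10.6, 10.4 and 11.9% in N-cre and 11.8, 11.8 and 10.2% in N-cre;Fox1 mice, which overlap. The retained-intron transcript Sort1-202 was at 43.1, 45.3 and 42.1 CPM and 36.4, 38.2 and 43.5 CPM (log2 fold change -0.14, SE 0.0747, adjusted p = 0.990), 5.62% of Sort1 counts. Its share was 5.84, 6.22 and 5.79% against 4.56, 5.44 and 5.85% and overlapped through replicate 3 of N-cre;Fox1 (p = 0.3, exact). Sort1-201 and Sort1-203 differ by little more than exon 17b, with 68 and 9 nt that no other Sort1 isoform covers, and exon 17b also lies within Sort1-202, so their division rests on few reads, those over that exon and its junctions.

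Relatives of sortilin are receptors of the same domain family, and Sorcs2 pairs with p75NTR as a proBDNF receptor. Sorcs2 was at 77.1, 78 and 77.1 CPM in N-cre and 84.4, 71.7 and 74.2 CPM in N-cre;Fox1 mice. The N-cre mice, with an SD of 0.547 CPM, lay inside the wider range of the N-cre;Fox1 mice, with an SD of 6.71 CPM. The log2 fold change was -0.01 (SE 0.0556, 95% interval -0.14 to 0.11), and 99.6% of counts fell on Sorcs2-201, the other 4 isoforms having at most 15.9 counts in a mouse.

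Sorcs3, a postsynaptic member of the family, was measured as 1 isoform at 50.4, 46.6 and 44.6 CPM in N-cre and 45.0, 44.2 and 46.4 CPM in N-cre;Fox1 mice, with overlap (log2 fold change -0.06, SE 0.0483, 95% interval -0.17 to 0.04). Sorcs1 was at 14.2, 14.3 and 12.8 CPM and 12.9, 15.1 and 13.4 CPM (log2 fold change 0.00, SE 0.0802, 95% interval -0.18 to 0.18). Of its 8 isoforms, 4 were tested. Sorcs1-208 held 82.3% of the counts and the form with another carboxy terminus, Sorcs1-205, held 10.1%.

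Sorcs1-208 was at 12.6, 9.92 and 10.6 CPM in N-cre and 10.7, 13.1 and 11.3 CPM in N-cre;Fox1 mice. Sorcs1-203, which shares its stop codon with Sorcs1-208, had the lowest fold change of the tested isoforms (log2 fold change -2.41, SE 1.504). That value rests on 1 library: it had 97.8 expected counts in replicate 2 of N-cre and 0 to 22.4 in the other 5 mice, and without that replicate the log2 fold change was -0.66. Summed with Sorcs1-208, the group was at 89.1, 84.5 and 86.6% of Sorcs1 counts in N-cre and 85.7, 87.4 and 84.3% in N-cre;Fox1 mice. Sorcs1-204, annotated as a target of nonsense-mediated decay, had at most 36.0 counts (log2 fold change 0.39, SE 0.653).

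The wider neurotrophin pathway was taken as 60 genes of ligands and Trk receptors, proneurotrophin cleavage and sorting, p75NTR partners, and Trk adaptors. Of the 56 tested, 0 passed the adjusted threshold by edgeR and 6, all higher in N-cre;Fox1 mice, had an unadjusted p under 0.05. That is 10.7% beside 6.19% of all genes. The Wald test of DESeq2 and limma-voom had 5 and 4 at that unadjusted threshold and 0 past the adjusted one. The share of all genes was counted in edgeR only, so these counts have no background beside them. The log2 fold change was positive for 35 and negative for 21 genes, with a median of 0.02 beside 0.00 for all genes.

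By role, Ntrk2, 1 of 17 genes of cleavage and sorting, 0 of 10 p75NTR partners and 4 of 26 adaptors were among the 6. Dusp6, a phosphatase of ERK, was at 57.7 to 75 CPM over the 6 mice, with a log2 fold change of 0.23 (SE 0.0548, adjusted p = 0.595). Crkl, an adaptor protein, had 0.16 (SE 0.0522, adjusted p = 0.713). Plat, the tissue plasminogen activator that takes part in proBDNF cleavage, had 0.19 (SE 0.0743, adjusted p = 0.799), and without replicate 1 of both genotypes it was the 1 list gene to pass, at 0.32 and an adjusted p of 0.0403 (0.0403 to 1.00 over its alternatives). Irs2, an insulin receptor substrate, and Sos1, a Ras exchange factor, had log2 fold changes of 0.11 (SE 0.0469) and 0.09 (SE 0.0394).

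Ntrk2, the TrkB gene, was at 521, 541 and 534 CPM in N-cre and 585, 589 and 548 CPM in N-cre;Fox1 mice, without overlap and at an adjusted p of 0.782 (log2 fold change 0.11, SE 0.0428). Ntf5, which encodes neurotrophin-4/5, was at 0.102 to 0.532 CPM in all mice.

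The genes whose level varied most like that of 3 members over the 6 mice were also listed, by Pearson's r of log2 CPM among 13741 other genes with a mean normalised count of at least 100. They were Zbtb1, Gm6145 and Dcp1b for Bdnf (r = 0.998, 0.997 and 0.992), Synj1, Chchd4 and Srsf12 for Ntf3 (r = 0.997, 0.995 and 0.985) and Cap1, Nfib and Pip5k1a for Sort1 (r = 0.997, 0.995 and 0.995). With 6 points that share their libraries and this many genes compared, such values are a description of these mice.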

How the data were processed

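Hippocampal RNA-seq libraries of 6 mice, 3 of each genotype, were grouped by the sample labels. Per the study's methods, total RNA was sequenced as paired reads, trimmed with Cutadapt 1.18, mapped to mm10 with STAR 2.5.2b and assigned to GENCODE isoforms with RSEM 1.3.0. The authors deposited the expected counts per isoform, neither normalised nor filtered. RSEM divides reads shared by isoforms, so isoform values carry that uncertainty. Gene sums do not depend on the division between isoforms of the same gene.

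Expected counts were rounded, summed by symbol for genes, filtered with filterByExpr (minimum count 10, minimum total 15) and tested over the whole table with edgeR 4.0.16 (quasi-likelihood test, robust, TMM, genotype as the only term, R 4.3.3), with Benjamini-Hochberg adjustment and a threshold of 0.05. The study tested with EBSeq, which was not used here. Isoform shares were compared by exact permutation in SciPy 1.17.1. Scripts were tested on simulated data with known changes. Positions and lengths came from GENCODE M21 of the same build, which holds 130826 of the 133944 isoforms under the same identifier and version, and promoters from RefSeq. TPM used annotated lengths, which covered at least 93.1% of each library's counts.

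All isoforms of the 8 genes were accounted for. Named with values were isoforms with at least 5% of their gene's counts or tested and without overlap, Ntrk2 and Ntf5, list genes with an unadjusted p under 0.05, and 3 genes most like Bdnf, Ntf3 and Sort1. The members, lists and tests were chosen with earlier results of these data known. The p-values measure the spread between mice of a genotype. Alternatives were DESeq2 1.42.0 size factors and Wald test, upper quartile normalization, limma-voom (limma 3.58.1), other filters, no rounding, a replicate block, a term for Xist and each mouse left out. Leaving out the choroid plexus libraries, or replicate 1 of both genotypes, was added after seeing the data. Rbfox motifs in introns next to alternative exons were not analysed here, as no genome sequence was used. Some genes that this rule names are not reported here.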

Additional observations from a re-analysis of the deposited data

How the results depend on the processing

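No member isoform and no member gene sum passed the adjusted threshold in any of the 17 alternatives, and of the wider list 1 gene, Plat, passed without replicate 1 of both genotypes and 0 elsewhere. Of 28 fold changes, 10 kept their direction throughout, among them Bdnf (log2 0.18 to 0.42), Bdnf-209 (0.53 to 0.79), Bdnf-205, Bdnf-201, Ntrk3-201 and Sort1-202. The other 18 had a main value of at most 0.39 in size and changed sign in at least 1 alternative; the cause was not tested. Of 13 shares, 7 kept their direction, the share of Bdnf exon IV at 5.05 to 6.69 points. Whether the same replicate numbers mark paired mice is not given by the labels. Over genes, same-numbered mice deviated from their genotype means with correlations of 0.378, -0.0951 and -0.211. The libraries rich in choroid plexus markers, which differ in replicate number, had a correlation of 0.439, so such values cannot decide on pairing. With a replicate block, Bdnf-209 was at 0.63 (edgeR adjusted p 0.9748) and Bdnf at 0.28 (0.675), no call changed, and the sign-flip test of the exon IV share gave its smallest p, 0.25 (exact).

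Ntf3-201, at no more than 24.9 counts in a mouse, was at -1.01 with limma-voom, -0.47 with the replicate block and -0.14 with the term for Xist. Sorcs1 was at -0.0079 with upper quartile normalization and -0.0041 with limma-voom. Without replicate 1 of both genotypes, Ntf3-201 was at -1.23, Ntf3-203 at 0.014, Sort1-201 at -0.0031, Sort1-203 at -0.023 and Sort1 at -0.00096. Among coding isoforms only, the share of Sort1-201 differed by -0.305 points.

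With 1 mouse, or both choroid plexus libraries, left out, log2 fold changes ranged for Bdnf-207 from -0.59 to 0.50, Bdnf-210 from -0.20 to 0.46, Ngfr-201 from -0.18 to 0.26, Ntf3-201 from -0.94 to 0.75, Ntf3-203 from -0.088 to 0.039, Ntrk3-202 from -0.088 to 0.013, Sorcs1-204 from -0.093 to 0.96, Sorcs1-205 from -0.076 to 0.25, Sorcs1-208 from -0.039 to 0.18, Sorcs2-201 from -0.088 to 0.034, Sort1-201 from -0.014 to 0.089, Sort1-203 from -0.010 to 0.16, Ntf3 from -0.10 to 0.084, Ntrk3 from -0.027 to 0.019, Ngfr from -0.17 to 0.28, Sort1 from -0.0087 to 0.084, Sorcs1 from -0.11 to 0.052 and Sorcs2 from -0.080 to 0.037. Differences in share, in percentage points, ranged for Bdnf exon I from -1.42 to 0.294, Ntf3 upstream first exon from -6.00 to 2.63, Ntf3-203 from -2.63 to 6.00, Sort1-201 from -0.0585 to 0.64, the isoforms that share the stop codon of Sorcs1-205 from -0.15 to 1.63 and the isoforms that share the stop codon of Sorcs1-208 from -2.06 to 0.218. Depth was lowest for Ngfr among the 8 genes, with 94 to 189 expected counts.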
